A study of Mus musculus with 6 samples.

Results

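Neuropeptide receptor genes were examined in KP1, a mouse small cell lung cancer cell line, after transfection with an active form of Notch1. The 10 genes, Npy1r, Adcyap1r1, Tacr1, Avpr1a, Sctr, Sstr2, Glp1r, Ntsr1, Vipr1 and Grpr, are 10 of the 22180 genes measured, and each had 1 probe set carrying its symbol alone. They were selected on earlier results of the same N1ICD against control values used here, so their differences are given as a description and were not tested. No filter on low values was applied, so all 10 were kept. The N1ICD group was 3 arrays of KP1 cells carrying the Notch1 intracellular domain followed by an internal ribosome entry site and GFP. The control group was 3 arrays of KP1 cells carrying the same kind of vector with GFP alone. All 6 samples came from 1 cell line, derived from mice in which Rb, p53 and p130 were knocked out, and all were sorted for GFP-positive cells 48 hours after transfection. Expression was measured on Mouse Gene 2.0 ST arrays, with each sample on its own array. The labels call the samples biological replicates without naming separate cultures, so the spread reported here may in part be technical.

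Peptide receptors of this kind are G protein-coupled receptors on the cell surface that respond to short secreted peptides. Receptors that act through Gs raise cyclic AMP, those that act through Gi lower it, and those that act through Gq release calcium through phospholipase C. Small cell lung cancer is a neuroendocrine tumor known for secreting such peptides, and gastrin-releasing peptide, neurotensin and vasopressin are known to act back on these cells as growth factors.

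The labels were checked first. Notch1 had log2 values of 8.07, 7.49 and 7.72 in the N1ICD arrays, against 6.35, 6.20 and 5.96 in the control arrays (limma adjusted p = 0.000889). An exact two-sided permutation test of Notch1 over the arrays gave p = 0.1, the smallest that 3 against 3 allows. Hes1 and Hes5, direct Notch targets, were higher by 3.46 ± 0.11 and 5.11 ± 0.15 (SE) on the log2 scale (limma adjusted p = 1.40e-06 and 1.13e-06, 3 arrays per group). Array medians over all probe sets lay between 5.59 and 5.72, so a value below 5.59 was dimmer than the middle of every array. With 3 arrays in a group, precision is limited by that number. Of 10 neuroendocrine markers 9 lay above every array median in both groups, and Scgn lay below. Insm1, a transcription factor of neuroendocrine cells, fell by 0.89 ± 0.15 (limma adjusted p = 0.0101), Chga rose by 0.64 ± 0.12 and Ncam1 by 0.53 ± 0.11 (limma adjusted p = 0.0155 and 0.0263), and 7 did not pass. The call of Chga was lost without N1ICD replicate 1, N1ICD replicate 3, control replicate 2 or control replicate 3, and that of Ncam1 when any array other than control replicate 3 was left out. Over all genes, 7.1% were called. The part of these markers in the receptor results was not tested.

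Of the 10 receptor genes, 4 lay higher in all N1ICD arrays than in any control array (Adcyap1r1, Tacr1, Avpr1a and Sctr), 3 lay lower (Npy1r, Sstr2 and Glp1r) and 3 overlapped (Ntsr1, Vipr1 and Grpr). Over all genes 26.1% did not overlap between the groups, 11.1% with N1ICD above and 15% with N1ICD below. Because the receptors were chosen from this contrast, nothing is read from their count against that background. Each of the 7 that did not overlap differed by more than 1 on the log2 scale, a change of more than 2-fold. The median log2 difference of the 10 genes was 0.28, next to -0.02 for all genes. In these bulk samples, fewer cells that express a gene and less RNA per cell cannot be told apart.

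The promoter windows of the receptor gene furthest above control in N1ICD cells, Adcyap1r1, of the one furthest below, Npy1r, and of Sstr2, which held 2 of the motifs searched, are shown 5′ to 3′ to give the sequence around their start sites. They are RefSeq sequences on GRCm38.p6, all on the plus strand, from 250 bases before to 50 after the start. Adcyap1r1 lies at chr6:55451728-55452027, Npy1r at chr8:66697172-66697471 and Sstr2 at chr11:113619077-113619376. Capitals mark motif matches.
Adcyap1r1: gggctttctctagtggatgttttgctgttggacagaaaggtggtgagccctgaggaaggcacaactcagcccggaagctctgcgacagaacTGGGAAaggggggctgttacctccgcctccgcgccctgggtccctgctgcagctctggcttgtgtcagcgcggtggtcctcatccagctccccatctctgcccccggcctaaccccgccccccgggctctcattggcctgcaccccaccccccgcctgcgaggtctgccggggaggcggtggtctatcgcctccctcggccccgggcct
Npy1r: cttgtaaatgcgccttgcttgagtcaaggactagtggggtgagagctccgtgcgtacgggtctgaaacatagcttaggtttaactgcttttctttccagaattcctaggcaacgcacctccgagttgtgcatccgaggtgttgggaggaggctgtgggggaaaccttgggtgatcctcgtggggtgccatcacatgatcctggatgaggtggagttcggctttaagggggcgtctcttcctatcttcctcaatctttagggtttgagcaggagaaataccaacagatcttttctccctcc
Sstr2: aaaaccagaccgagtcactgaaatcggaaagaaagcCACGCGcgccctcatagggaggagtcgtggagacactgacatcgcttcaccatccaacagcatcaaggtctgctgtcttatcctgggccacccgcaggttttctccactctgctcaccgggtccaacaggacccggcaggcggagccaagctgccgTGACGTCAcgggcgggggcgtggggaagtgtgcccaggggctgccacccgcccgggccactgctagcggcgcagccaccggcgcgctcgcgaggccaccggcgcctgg

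Of the 10 genes, 9 had a window in the RefSeq table, and Sctr did not. The motifs searched on both strands were TGGGAA, the core of the site bound by RBPJ, the DNA-binding partner of the Notch1 intracellular domain, CACGTG and CACGCG, sites of HES and HEY repressors, and TGACGTCA, the cyclic AMP response element. No match overlapped another. TGGGAA was found in the Adcyap1r1 window, with its first base 159 bases before the start, and in 1 of the 9 receptor windows, whereas 25.6% of all 32851 windows held it. CACGCG was found in the Sstr2 window, 214 bases before the start, and 9.27% of all windows held it. TGACGTCA was also found in the Sstr2 window, 58 bases before the start, and 1.79% of all windows held it. CACGTG was in 0 of the 9 windows and in 7.15% of all. A match describes these letters in these windows and does not show a binding site.

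The receptors that act mainly through Gs differed between the groups in both directions. Adcyap1r1 encodes PAC1, the receptor of the neuropeptide PACAP, and its promoter is the first of the sequences shown above. Its log2 values were 9.60, 9.34 and 9.36 in the N1ICD arrays, against 7.11, 6.88 and 6.76 in the control arrays. The groups were separated by a gap of 2.23 between the lowest N1ICD and the highest control array. The difference was 2.52 ± 0.13 (SE), or 5.72-fold higher in N1ICD cells, the largest of the 10. Sctr, the receptor of secretin, had values of 7.87, 6.75 and 7.24 in the N1ICD arrays, against 5.65, 5.45 and 5.06 in the control arrays. It was 3.73-fold higher in N1ICD cells (1.90 ± 0.27), with the widest spread of the 10, 1.12 between the highest and the lowest N1ICD array. The control mean of Sctr, 5.39 ± 0.30 (SD), lay below every array median, where RMA values compress a change.

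Glp1r, the receptor of glucagon-like peptide 1 and in pancreatic beta cells a trigger of insulin release, was the only Gs receptor of the 10 with lower values in N1ICD. It had log2 values of 10.46, 10.09 and 10.32 in the N1ICD arrays, against 11.26, 11.42 and 11.27 in the control arrays. The groups did not overlap, and the difference was -1.03 ± 0.12 (SE), 2.04-fold lower in N1ICD cells. At a mean of 10.29 in N1ICD and 11.32 in control cells, its probe set stayed far above every array median in both groups. Vipr1, a receptor of vasoactive intestinal peptide that also binds PACAP, had values of 7.45, 7.15 and 7.42 in the N1ICD arrays, against 7.11, 6.96 and 7.16 in the control arrays. The lowest N1ICD array, replicate 2, lay just under the highest control array, replicate 3, and the difference was 0.26 ± 0.12.

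Of the receptors that act mainly through Gq, Tacr1 and Avpr1a were higher in N1ICD cells by nearly the same amount. Tacr1 encodes the neurokinin receptor of substance P. It had log2 values of 8.64, 8.23 and 8.35 in the N1ICD arrays, against 6.09, 6.29 and 6.08 in the control arrays, a difference of 2.25 ± 0.13 (SE) or 4.76-fold. Avpr1a, a vasopressin receptor, had values of 7.26, 7.44 and 7.45 in the N1ICD arrays, against 5.23, 5.15 and 5.05 in the control arrays. Its difference was 2.24 ± 0.10, or 4.73-fold, and the arrays of neither group spanned more than 0.20. The control mean of Avpr1a, 5.14 ± 0.09 (SD), lay below every array median, and that of Tacr1, 6.15 ± 0.12, did not.

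The other Gq receptors, those of neurotensin and gastrin-releasing peptide, were dim in both groups. Ntsr1, the high-affinity neurotensin receptor, had log2 values of 5.51, 5.37 and 5.66 in the N1ICD arrays, against 5.19, 5.11 and 5.41 in the control arrays. Grpr, the receptor of gastrin-releasing peptide, had values of 4.74, 4.48 and 4.25 in the N1ICD arrays, against 4.13, 4.44 and 4.04 in the control arrays. The groups overlapped for both genes, with differences of 0.27 ± 0.12 (SE) for Ntsr1 and 0.29 ± 0.16 for Grpr. Their means lay below every array median in both groups, and background was not measured, so these values do not show whether the receptors were expressed.

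Both receptors that act mainly through Gi were lower in N1ICD cells. Npy1r, a neuropeptide Y receptor whose promoter is shown above, had log2 values of 6.49, 6.05 and 7.03 in the N1ICD arrays, against 8.51, 8.27 and 8.76 in the control arrays. The groups were separated by 1.25, and the difference was -1.99 ± 0.24 (SE), 3.98-fold lower in N1ICD cells and the furthest below control of the 10. The N1ICD arrays spread over 0.98 and the control arrays over 0.49. Sstr2, the somatostatin receptor used to image neuroendocrine tumors, had values of 7.22, 7.20 and 7.39 in the N1ICD arrays, against 8.38, 8.31 and 8.40 in the control arrays. Its difference was -1.09 ± 0.10, or 2.13-fold, and the gap of 0.92 between the groups was wider than the spread of 0.18 within N1ICD or of 0.09 within control.

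**Figure D1:**
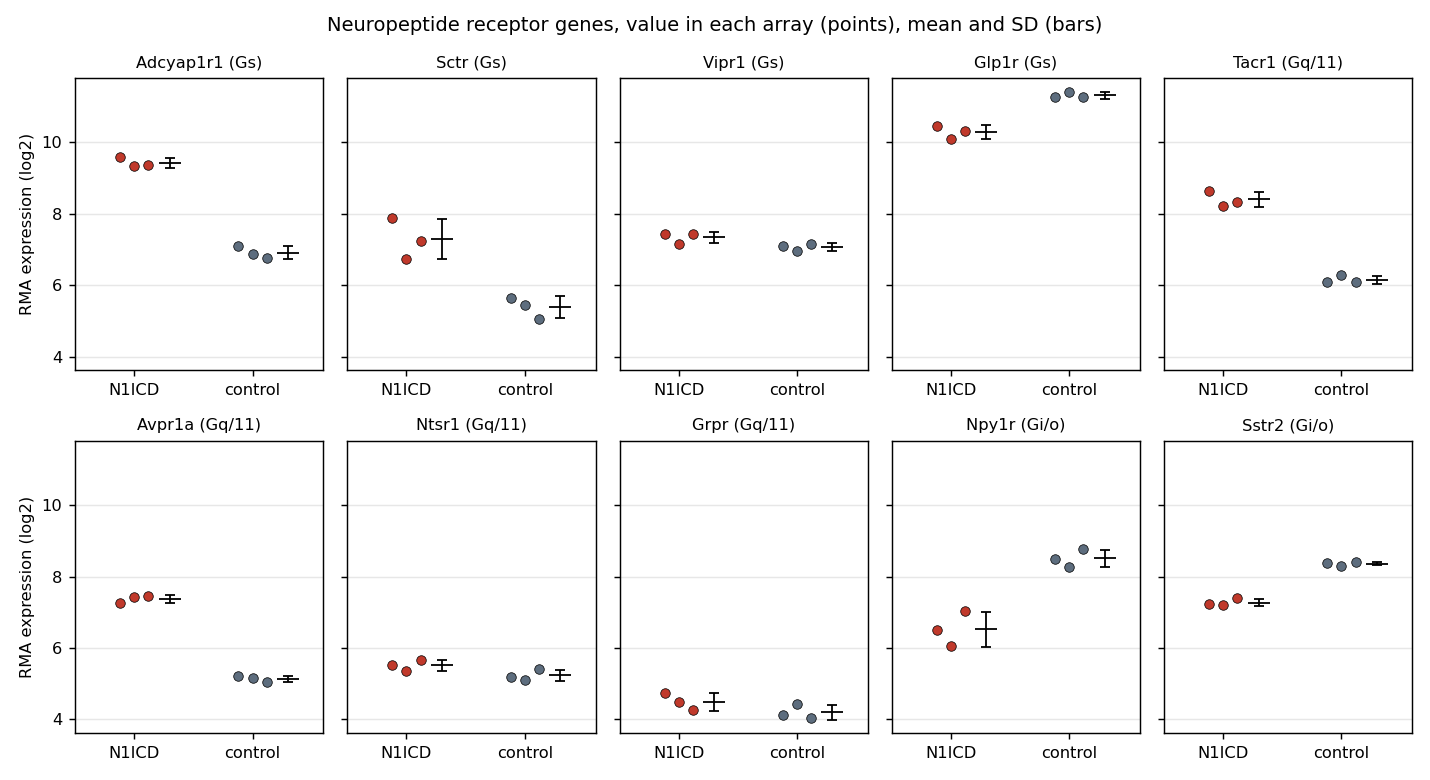
RMA expression (log2, vertical axis) of the 10 receptor genes in 3 N1ICD arrays (red) and 3 control arrays (grey), 1 panel per gene with its main G protein in the title; the bar beside each group is the mean with the SD. Adcyap1r1, Tacr1, Avpr1a and Sctr sit higher in N1ICD without overlap, Glp1r, Npy1r and Sstr2 sit lower without overlap, and the groups meet for Vipr1, Ntsr1 and Grpr.

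The same N1ICD array was the lowest of its group for most of the receptor genes. N1ICD replicate 2 held the lowest of the 3 N1ICD values for 8 of the 10 genes, the exceptions being Avpr1a and Grpr, whereas it held the lowest for 31.0% of all genes. It was lowest both for receptors that were higher in N1ICD, such as Sctr, and for receptors that were lower, such as Npy1r. N1ICD replicate 2 also had the lowest Notch1 value of its group, 7.49, but the highest Hes1 and Hes5 values, 9.64 and 11.21. The part of this array in the results was not tested beyond leaving it out, which gave a difference of 2.17 for Sctr and -1.75 for Npy1r, next to 1.90 and -1.99 with all arrays.

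By the root mean square difference between profiles over the 6 arrays, each centred on its own mean, Tmem171 (0.27), Scx (0.27) and Sftpc (0.28) were most like Npy1r among the genes outside the 10. Ephb1 (0.16), Astn2 (0.17) and Kcnj8 (0.17) were most like Adcyap1r1. Kcnj8, a potassium channel subunit, had log2 values of 8.60, 8.52 and 8.40 in the N1ICD arrays, against 5.77, 6.04 and 5.86 in the control arrays. The surfactant gene Sftpc had 6.98, 6.51 and 7.31 in the N1ICD arrays, against 8.37, 8.87 and 8.70 in the control arrays, so that N1ICD replicate 2 was lowest for it as it was for Npy1r.

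The closest relatives of the 10 genes were read next. Of 21 other receptors in the same ligand families, 2 rose, 0 fell and 19 did not pass (limma, Benjamini-Hochberg adjusted p of 0.05 over all genes). Over all genes 7.1% were called, 3.82% higher and 3.27% lower, so the count is no result about the relatives. Npy2r, Npy4r, Npy6r, Glp2r, Tacr2, Tacr3, Avpr1b, Avpr2, Sstr1, Nmbr and Brs3 lay below every array median in both groups, where RMA values compress a change. With array medians set equal, the split over all genes was 730 higher and 948 lower, next to 848 and 726 as deposited. Beside Npy1r, the 4 other neuropeptide Y receptors ranged from -0.31 (Npy5r, limma adjusted p = 0.121) to 0.01. Beside Sstr2, the 4 other somatostatin receptors ranged from -0.17 to 0.27, and beside Tacr1 the other tachykinin receptors, Tacr2 and Tacr3, had 0.21 and -0.09. Vipr2, the second receptor of vasoactive intestinal peptide, had 0.03, beside the 2.52 of Adcyap1r1. The receptors that rose, named after their values were seen, were Gipr, which responds to the incretin GIP and belongs to the group of Sctr and Glp1r, and Oxtr, the oxytocin receptor of the family of Avpr1a. Oxtr had log2 values of 6.64, 6.37 and 6.57 in the N1ICD arrays, against 5.87, 5.85 and 5.90 in the control arrays (0.66 ± 0.10 SE, limma adjusted p = 0.00731). Gipr had 6.56, 7.07 and 6.54 in the N1ICD arrays, against 5.97, 5.82 and 6.07 in the control arrays (0.77 ± 0.16, limma adjusted p = 0.0233). The call of Gipr was lost when any 1 control array was left out (adjusted p up to 0.0842), and Oxtr passed in all 6 fits with 1 array left out. Differences between relatives were not tested against each other. The 10 genes were chosen from this contrast, so smaller differences among their relatives may reflect that choice.

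**Figure D2:**
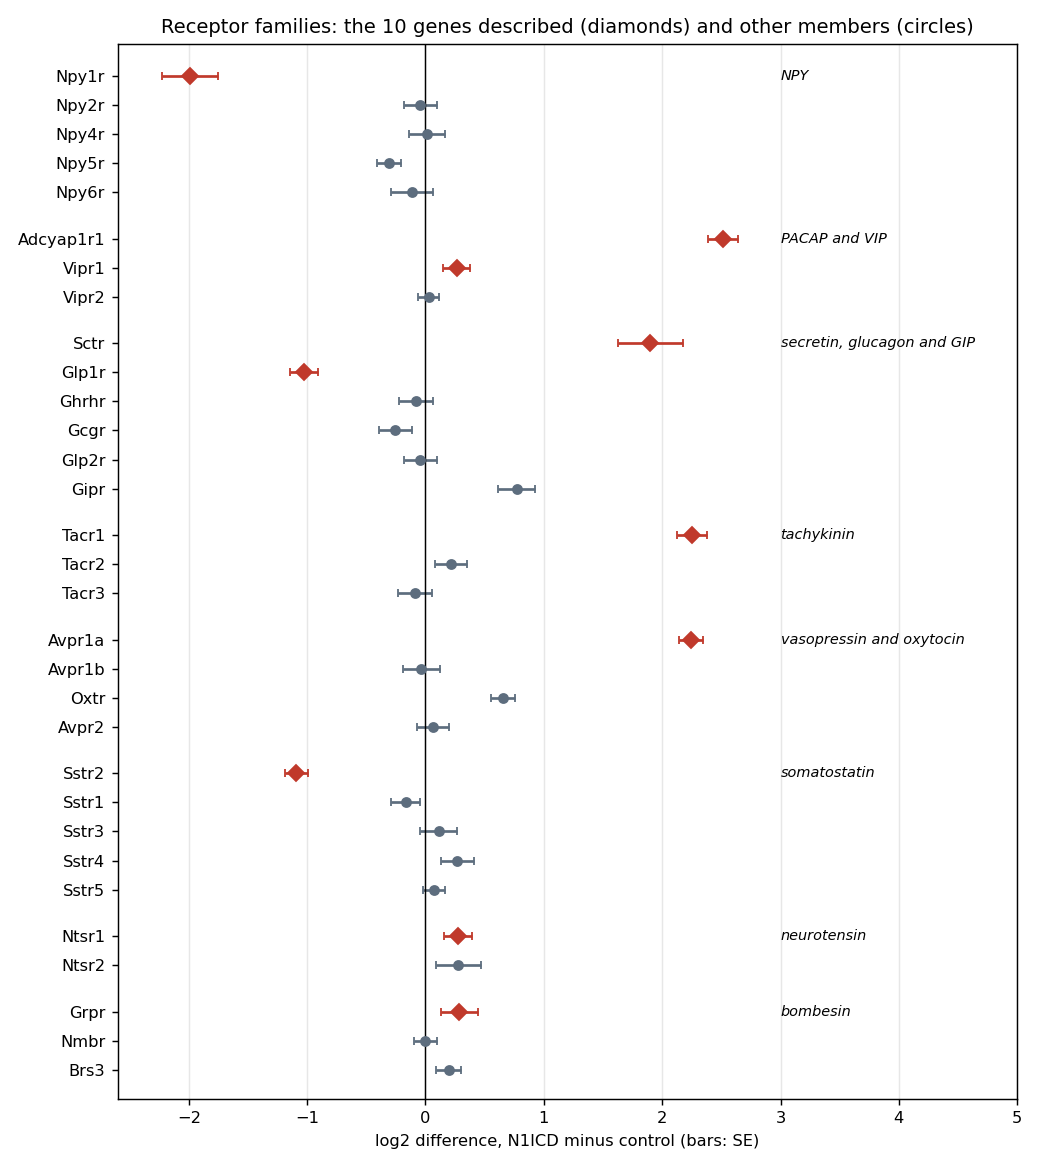
Log2 difference, N1ICD minus control (horizontal axis, bars are the SE), for the 10 receptor genes (red diamonds) and the 21 other receptors of their ligand families (grey circles), 1 row per gene. The relatives lie between -0.31 and 0.77, while Adcyap1r1 reaches 2.52 and Npy1r -1.99. The 10 genes were chosen from this contrast, and the relatives are the family members left after that choice.

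Among all 70 other peptide receptors measured, the relatives included, 5 rose, 4 fell and 61 did not pass. The share called was 12.9% against 7.1% of all genes, with a median difference of 0.03. These 70 are the receptors left after the genes examined first were chosen from this contrast. The share and the median may reflect that choice, so nothing is read from them. Bdkrb2, a bradykinin receptor, rose most of these 70, with 7.58, 7.60 and 7.46 in the N1ICD arrays, against 6.37, 6.04 and 5.94 in the control arrays. Its difference was 1.43 ± 0.13 (SE), or 2.69-fold (limma adjusted p = 0.000406). The galanin receptor Galr1 fell most of the 70 (-0.81 ± 0.19, limma adjusted p = 0.0426). Its call was lost when any N1ICD array, control replicate 2 or control replicate 3 was left out (adjusted p up to 0.132). The number called was 5 without N1ICD replicate 1 or N1ICD replicate 3, and 3 without control replicate 2 or control replicate 3. None of the 4 genes that fell was called in those fits.

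Peptides that act on the 10 receptors were measured through 16 precursor genes, and 1 rose, 0 fell and 15 did not pass, a share of 6.25% against 7.1% of all genes, with a median difference of -0.05. That share was near the background, so the count is no result about the ligands. The gene that rose was Nts, the precursor of neurotensin, the ligand of Ntsr1. Nts had log2 values of 7.47, 6.61 and 7.31 in the N1ICD arrays, against 4.22, 4.11 and 4.86 in the control arrays. The difference was 2.73 ± 0.26 (SE), or 6.65-fold higher in N1ICD cells (limma adjusted p = 0.000566), larger than that of any of the 10 receptors. The control mean of Nts, 4.40 ± 0.40 (SD), lay below every array median, and its receptor gene Ntsr1 lay there in both groups. Ntsr2, the other neurotensin receptor gene, lay above every array median in both groups. It had 8.40, 8.86 and 8.16 in N1ICD, against 8.14, 8.43 and 8.02 in control (0.28 ± 0.19 SE, limma adjusted p = 0.486).

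For the 4 receptors that were higher in N1ICD cells, no ligand gene passed the test. Adcyap1, the precursor of PACAP, had 4.85, 4.91 and 4.94 in the N1ICD arrays, against 5.14, 4.94 and 5.13 in the control arrays (-0.17 ± 0.10 SE, limma adjusted p = 0.401), beside the 5.72-fold higher Adcyap1r1. Tac1, the substance P precursor, had a difference of -0.08 ± 0.12, and Tac4, another tachykinin precursor, had -0.41 ± 0.15 (limma adjusted p = 0.163), beside the 4.76-fold higher Tacr1. Avp and Oxt, the precursors of vasopressin and oxytocin, had 0.28 ± 0.14 and -0.03 ± 0.10, beside the 4.73-fold higher Avpr1a. Sct, the secretin precursor, had 0.04 ± 0.12. The means of Adcyap1 and Tac1 lay below every array median in both groups, and that of Tac4 in N1ICD. Such dim values do not show whether a gene was expressed.

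For the receptors that were lower, Npy had 5.681, 5.735 and 5.527 in the N1ICD arrays, against 5.708, 6.001 and 5.443 in the control arrays (-0.07 ± 0.15 SE), beside the 3.98-fold lower Npy1r. Pyy and Ppy, precursors of related peptides, had 0.24 ± 0.12 and 0.37 ± 0.13 (limma adjusted p = 0.336 and 0.142). Ppy was called only without N1ICD replicate 3 (adjusted p = 0.0444). Sst and Cort, the precursors of the somatostatin receptor ligands, had -0.06 ± 0.09 and -0.11 ± 0.17. Gcg, which encodes glucagon-like peptide 1 and glucagon, had 0.33 ± 0.18 (limma adjusted p = 0.349). The means of Pyy, Cort and Gcg lay below every array median in both groups.

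Grp, the precursor of gastrin-releasing peptide, lay above every array median in both groups, while its receptor gene Grpr lay below. Grp had 7.73, 7.95 and 7.61 in the N1ICD arrays, against 7.59, 7.03 and 7.55 in the control arrays. The groups did not overlap, and the difference of 0.38 ± 0.17 (SE) did not pass (limma adjusted p = 0.264). Neither did those of Vip (-0.14 ± 0.10), dim in both groups, and the related bombesin-like precursor Nmb (-0.10 ± 0.12).

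**Figure D3:**
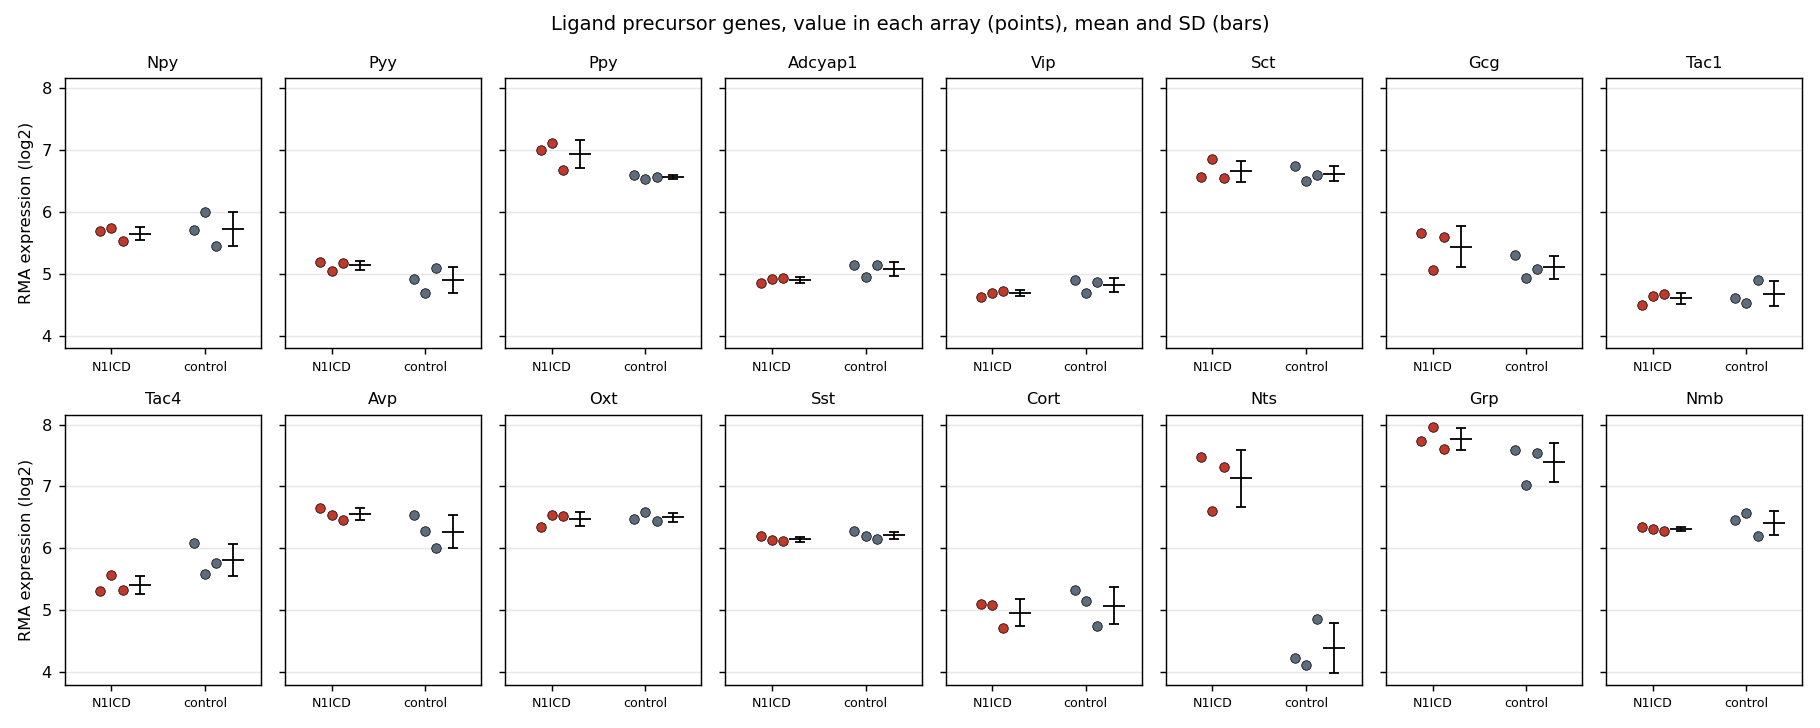
RMA expression (log2, vertical axis) of the 16 ligand precursor genes in 3 N1ICD arrays (red) and 3 control arrays (grey), 1 panel per gene; the bar beside each group is the mean with the SD. Nts is 2.73 higher in N1ICD, and no other panel shows a group difference above 0.41 in size.

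The G proteins and effectors through which these receptors act changed in both directions. Of 38 measured, 5 rose, 4 fell and 29 did not pass, 23.7% called with a median of -0.04. Of these genes 30 were brighter than the median gene, and 11.6% of all genes brighter than the median were called. Gnal, a Gs-type alpha subunit of olfactory and striatal neurons, rose with values of 8.49, 8.52 and 8.42 in the N1ICD arrays, against 7.17, 7.25 and 7.44 in the control arrays (1.19 ± 0.10 SE, limma adjusted p = 0.000338). Adcy1, a calcium-stimulated adenylyl cyclase, fell with 7.72, 7.03 and 7.48 in the N1ICD arrays, against 8.56, 8.72 and 8.64 in the control arrays (-1.23 ± 0.17, limma adjusted p = 0.00387). Adcy8, its calcium-stimulated relative, fell by 0.92 ± 0.19 (limma adjusted p = 0.0237), a call lost without N1ICD replicate 1 or 2 (adjusted p up to 0.0971). The N1ICD mean of Adcy8, 5.40 ± 0.21 (SD), lay below every array median. Kcnj3, a potassium channel subunit opened by Gi-coupled receptors such as those encoded by Npy1r and Sstr2 and named here after its values were seen, fell by 0.88 ± 0.12 (limma adjusted p = 0.00335), and by 0.76 at a second probe set. The number called was 3, 5, 5 and 4 without N1ICD replicate 2, N1ICD replicate 3, control replicate 1 and control replicate 2.

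Of 26 genes that regulate such receptors or their G proteins, 2 rose, 4 fell and 20 did not pass (23.1% called, median -0.13). Over all genes 7.1% were called, and 11.6% of those brighter than the median gene, as 16 of the 26 were. Rgs16, which shortens Gi and Gq signals, fell by 1.20 ± 0.10 (SE), with 8.61, 8.48 and 8.73 in the N1ICD arrays, against 9.74, 9.77 and 9.89 in the control arrays (limma adjusted p = 0.000338). Rgs2, a regulator of Gq signals, fell by 0.96 ± 0.12 (limma adjusted p = 0.00306), and by 0.43 at a second, dim probe set. The receptor kinase Grk5 fell by 0.81 ± 0.19, a call lost when any array other than N1ICD replicate 3 was left out (adjusted p up to 0.142). Arrb1, a beta-arrestin that takes receptors off the surface and was named after its values were seen, rose by 0.74 ± 0.09 (limma adjusted p = 0.00228). The number called was 3 without N1ICD replicate 2, control replicate 1 or control replicate 3.

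Of 13 peptidases that cleave neuropeptides, 2 rose, 3 fell and 8 did not pass (38.5% called, median 0.02). The share was 7.1% over all genes and 11.6% over those brighter than the median gene, as 10 of the 13 were. Mme, the membrane enzyme neprilysin, which degrades substance P and other ligands of these receptors, rose 5.92-fold, with a control mean in the dim range described for Sctr. It had 7.201, 8.475 and 7.999 in the N1ICD arrays, against 5.108, 5.358 and 5.515 in the control arrays (2.56 ± 0.29 SE, limma adjusted p = 0.00131). The aminopeptidase Enpep, whose control mean also lay below every array median, rose by 1.27 ± 0.15, and the endothelin-converting enzyme Ece1 fell by 1.02 ± 0.09 (limma adjusted p = 0.00186 and 0.000462). Anpep (-0.60 ± 0.14) and Prep (-0.44 ± 0.09) fell, but each lost its call without 5 of the 6 arrays, the exception being N1ICD replicate 1 for Anpep and N1ICD replicate 3 for Prep (highest adjusted p = 0.129 and 0.106). The number called was 3 without N1ICD replicate 2 or any 1 control array.

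Of 19 genes that respond to cyclic AMP or calcium, 4 rose, 3 fell and 12 did not pass (36.8% called, median 0.04). The list thus did not go one way. The share called was 7.1% over all genes and 11.6% over those brighter than the median gene, as 14 of the 19 were. Pde10a, a phosphodiesterase, rose by 0.94 ± 0.11 (SE) and the nuclear receptor Nr4a3 by 0.84 ± 0.15 (limma adjusted p = 0.00192 and 0.0121), while the early response factor Egr1 fell by 0.86 ± 0.15 (limma adjusted p = 0.0127). All 3 kept their calls without any 1 array.

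**Figure D4:**
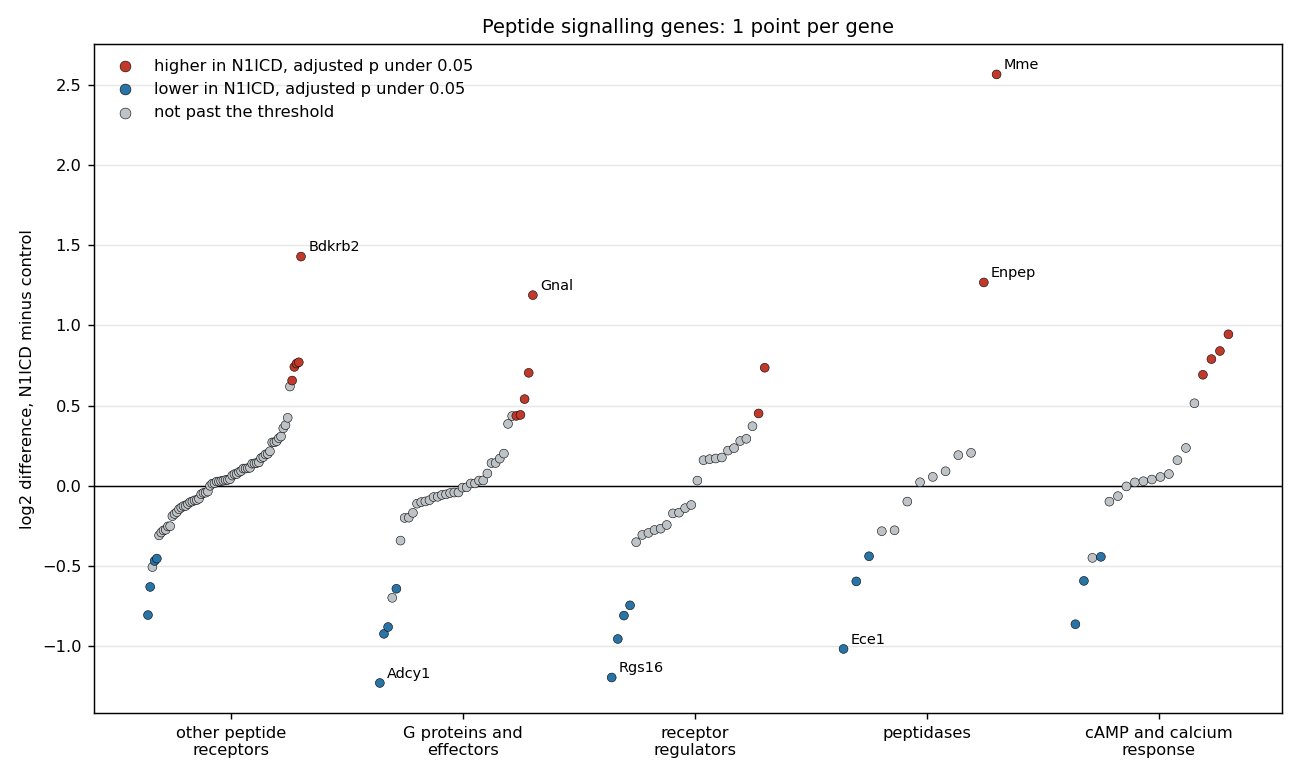
Log2 difference, N1ICD minus control (vertical axis), of each gene (points) in 5 lists of peptide signalling genes, sorted by size within a list; red and blue points passed the test higher or lower in N1ICD, grey points did not. Mme at 2.56 lies highest and Adcy1 at -1.23 lowest, and most points of the other receptors lie near 0. Those receptors are the ones left after the genes examined first were chosen from this contrast.

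Markers of other cell types were read beside these results, with 7.1% of all genes called. Of 6 endothelial markers 2 rose, Kdr (3.04 ± 0.17 SE) and Tek (1.06 ± 0.14), and the mean of the list lay at 6.28 to 6.46 in the N1ICD arrays and 5.55 to 5.69 in the control arrays. The other 4, Emcn (0.30), Cldn5 (0.09), Pecam1 (0.07) and Cdh5 (-0.01), did not pass, and all of these but Pecam1 lay below every array median in both groups. Of 7 fibroblast markers 1 rose (Pdgfrb, 0.89) and 1 fell (Pdgfra, -0.74). The call of Pdgfra was lost without N1ICD replicate 1, N1ICD replicate 2, control replicate 2 or control replicate 3. The fibroblast list means were 5.77 to 5.81 in the N1ICD arrays and 5.77 to 5.91 in the control arrays. Pdgfra was the brightest fibroblast marker, at 8.24 ± 0.16 (SD) in N1ICD cells and 8.97 ± 0.24 in control cells. Of 7 macrophage and blood cell markers 1 rose (Lyz2, 0.52, a call lost when any 1 of the 6 arrays was left out), with list means of 4.915 to 5.052 in the N1ICD arrays and 4.803 to 4.925 in the control arrays. Of these 7, Cd68 lay above every array median in both groups, at 6.77 ± 0.07 (SD) in N1ICD cells and 6.95 ± 0.23 in control cells, and the other 6 lay below in both. Their part in the differences of the receptor genes was not tested.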

How the data were processed

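Total RNA of 6 samples of KP1 cells was measured on Affymetrix arrays, 1 per sample. The deposited values are log2 expression after RMA, which the submitters' processing notes name without a version. RMA corrects background, quantile normalizes the arrays and summarizes the probes of a set. No source used here names the log base or genome build, and base 2, the one RMA uses, was taken. RMA pulls arrays to a common distribution and compresses changes of dim probe sets. Of 41345 probe sets, 23521 carried 1 gene symbol in the platform annotation, 1814 carried several and 16010 were not listed with a gene. Each of 22180 genes was represented by its brightest single-symbol probe set over the 6 arrays. Some genes of the lists were not analysed here, and counts are over those measured.

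Groups came from the sample titles. Differences are N1ICD minus control, from limma (lmFit, then eBayes; version 3.58.1 under R 4.3.3) over all genes, with two-sided p-values adjusted by Benjamini-Hochberg and a threshold of 0.05. Each ± after a difference is the SE of that fit, each ± after a mean the SD over 3 arrays. The 10 receptor genes entered the fit, and no p is given for them. The fit was also run on simulated data with known changes and independent noise for each gene. No result here rests on that run. Figures were drawn with matplotlib 3.10.9.

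The receptor genes and lists were chosen with earlier results of these data known. Named were the 10 genes, every ligand precursor, the 3 called genes of each other list with the largest differences (all where 5 or fewer were called), Notch1, Hes1 and Hes5, and the 3 genes nearest in profile to Npy1r and Adcyap1r1. The same alternatives were applied to every list: quantile normalization again, equal array medians, only genes brighter than the median, the mean over probe sets, an intensity trend with robust eBayes, a block for the replicate number, and fits with each array left out in turn. Genes named outside that rule are said to be so where they appear, with these exceptions. Cd68 and Scgn are given because they stood apart in brightness from the rest of their lists. The endothelial markers are all given, and Npy5r and other receptors are given by family.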

Additional observations from a re-analysis of the deposited data

How the results depend on the processing

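The differences of the 10 receptor genes kept their sign and moved by less than 1 SD, pooled over both groups, in all 98 values recomputed under other normalizations, the brightness filter, the mean over probe sets or with 1 array left out. Npy1r ranged from -2.24 to -1.75, Adcyap1r1 from 2.43 to 2.61, Sctr from 1.61 to 2.17 and Grpr from 0.16 (without N1ICD replicate 1) to 0.41. Ntsr1 and Grpr were removed by the brightness filter. Neither that filter nor, with 1 probe set per gene, the mean over probe sets could change a difference. Leaving out 1 of 3 arrays cannot move a difference by 1 pooled SD. The limit of 1 SD could therefore be exceeded only under the other normalizations. The groups of 7 to 9 of the 10 did not overlap, 8 after quantile normalization again. Leaving out an array can only keep or raise this count, so nothing is read from it. The share over all genes, 26.1%, was computed only on the values as deposited with all arrays.

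With 1 array left out, 823 to 1230 genes changed over all genes, next to 1574 (823, 896 and 887 without N1ICD replicate 2, control replicate 2 and control replicate 3), 3 to 6 other peptide receptors, 1 to 2 ligand precursors, 3 to 8 G proteins and effectors, 3 to 7 receptor regulators, 3 to 4 peptidases and 5 to 6 response genes. These fits hold fewer samples. With only genes brighter than the median, 0 of 6 ligand precursors changed, because Nts was among those removed. Under equal array medians 730 genes rose and 948 fell, next to 848 and 726, and with that filter 908 rose and 1289 fell. Under an intensity trend with robust eBayes the numbers were 1049 and 1227. Of 37 called genes in the lists, 18 kept the call without any 1 array, and none reversed in any alternative.

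Same-numbered arrays correlated in their deviations from the group means by 0.23, 0.01 and 0.20. N1ICD replicates 1 and 3 correlated best with their own number, and N1ICD replicate 2 did not (0.02 with control replicate 3). The labels name no pairs, so the main fit did not pair the arrays. Whether same-numbered arrays were handled together is not known. With the replicate block 1518 genes changed, with 8 other peptide receptors, 1 ligand precursor, 6 G proteins and effectors, 6 regulators, 4 peptidases and 7 response genes. Of the genes named, Gipr, Adcy8, Anpep and Ncam1 lost their calls under that block (adjusted p = 0.0608, 0.0652, 0.0559 and 0.0553). Background was not measured, so dim receptors such as Grpr and Ntsr1 carry little information.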
